A study of Mus musculus with 3 samples.

Results

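The axon guidance ligands and receptors described here are 59 autosomal protein-coding genes of the mouse: semaphorins and plexins, ephrins and Eph receptors, Slit and Robo genes, netrins, netrin-G genes and Unc5 receptors. They were taken by gene symbol from the GENCODE annotation of the mm10 build, out of 68 symbols of these families and 21602 genes counted in all. Of the other 9, the genes Efnb1, Plxna3 and Plxnb3 lie on the X chromosome, and Robo1, Robo2, Slit3, Unc5d, Sema6d and Epha6 span more than 500 kb. At that limit, Sema3a was the longest gene kept, with a window of 479152 bases, and Robo2 was the shortest one left out, with 521987 bases. By role, 34 of the genes encode ligands and 25 encode receptors.

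Chromatin accessibility was measured by single-nucleus ATAC-seq (snATAC-seq), in which the transposase Tn5 cuts open DNA inside nuclei and each nucleus receives a barcode. There were 3 libraries of wild-type C57BL/6JRj mouse embryos, with a single one for each of the stages E12.5, E13.5 and E15.5 (days of embryonic development) and no treatment named in the labels. They held 153, 970 and 756 nuclei in stage order and a median of 30239, 62903 and 43486 unique fragments per nucleus. Nuclei came from frozen sections, so each library holds the tissues of those sections, and no source used here says how many embryos went into a library.

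Growing axons read cues in their surroundings through receptors on the growth cone. Semaphorins signal mainly through plexins, membrane-bound ephrins through Eph receptor kinases, Slits through Robo receptors, and netrins through Dcc and the Unc5 receptors. Many of these proteins also act outside the nervous system, for instance in vessels, mesenchyme and epithelia. Accessibility over a gene is not its expression: it counts open DNA along the gene.

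For every gene, unique fragments were counted over the gene body and the 2 kb upstream. The nuclei of each cluster deposited by the authors were summed within a library. Values are given as density, in CPM per kb of window, where CPM are the fragments per 1000000 fragments in genes of that sum. Clusters 2 and 4 were left out. Sums of at least 10 nuclei entered the tests, from clusters with such sums in at least 2 libraries, which gave 23 sums from 9 clusters. Clusters 6, 7, 8 and 10 were below that number in E12.5 and entered with the E13.5 and E15.5 libraries alone. All 59 genes passed the filter on low counts, among 19211 genes tested. The study's methods describe clusters of these nuclei together with spatial ATAC profiles, without naming them as the deposited ones. If the deposited clusters were made from these same fragments, adjusted p-values from edgeR describe the clusters and are no independent evidence that they differ. The library stands for the replicate and is also the stage. A sum mixes its nuclei, so a difference in some of them cannot be told apart from one in all.

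Markers were at least 1.5-fold raised as follows. All 9 neuron markers and 6 of 7 GABAergic neuron markers were raised in cluster 0. In cluster 6, 8 of 9 neuron markers, 6 of 6 glutamatergic neuron markers and 5 of 8 progenitor markers were raised. Cluster 9 had 8 of 8 neural progenitor markers raised, cluster 1 had 8 of 8 mesenchyme markers, cluster 5 had 8 of 8 erythroid markers and cluster 10 had 8 of 8 skeletal muscle markers. Cluster 10 also had 3 of 5 heart muscle and 4 of 6 sensory neuron markers raised, the latter with a sum of 217 CPM against 39.3 to 151 in the other clusters, and 0 of 9 neuron markers. These are called neuron-like, progenitor-like, mesenchyme-like, erythroid-like and muscle-like. Cluster 3 had 8 of 8 mesenchyme markers raised but also the highest median of fragments per nucleus in each library. That median was 132132, 104625 and 99143 in stage order. Cluster 7 mixed epithelium, cartilage and Schwann cell markers, and cluster 8 mixed liver, white blood cell and endothelium markers. These 3 clusters are given by number. Cluster 11, also with erythroid markers, had 1, 35 and 7 nuclei, so a single library reached the minimum and it was not tested. The 59 genes held 969 fragments there in all.

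The windows of 300 bases below show where fragments of the leading genes lay. The first 3 are promoters, from 250 bases before to 50 after the gene start in RefSeq (build GRCm38.p6, with the coordinates of mm10), of genes that differed between neuron-like and mesenchyme-like clusters. The next 4 lie outside the promoter and were chosen because they held the most excess fragments in the named cluster, so their values are a description without a test. Each is printed 5′ to 3′ on the strand of its gene. Capitals mark, on either strand, the motifs searched: the GC box letters GGGCGG, the CCAAT box, the TATA box letters TATAAA, the E-box letters CAGCTG as well as those of another E-box, CATATG, the homeodomain core TAATTA, the Sox letters AACAAT and the GATA letters AGATAA. Marks that touch or overlap run together.

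Ephb4 promoter, chr5:137349859-137350158, plus strand: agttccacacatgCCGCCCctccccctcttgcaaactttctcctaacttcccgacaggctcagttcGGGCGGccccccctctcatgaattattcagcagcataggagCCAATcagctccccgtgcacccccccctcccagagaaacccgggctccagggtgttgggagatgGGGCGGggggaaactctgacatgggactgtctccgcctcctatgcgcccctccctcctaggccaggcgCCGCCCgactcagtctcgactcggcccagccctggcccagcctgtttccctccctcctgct

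Epha10 promoter, chr4:124881535-124881834, plus strand, at a RefSeq start 886 bases from the GENCODE start: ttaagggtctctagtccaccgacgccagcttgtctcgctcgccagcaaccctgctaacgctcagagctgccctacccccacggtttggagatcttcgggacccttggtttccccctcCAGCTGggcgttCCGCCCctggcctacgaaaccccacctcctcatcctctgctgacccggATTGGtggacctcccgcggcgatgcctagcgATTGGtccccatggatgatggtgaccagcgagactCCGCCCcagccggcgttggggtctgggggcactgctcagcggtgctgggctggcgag

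Unc5a promoter, chr13:54949161-54949460, plus strand: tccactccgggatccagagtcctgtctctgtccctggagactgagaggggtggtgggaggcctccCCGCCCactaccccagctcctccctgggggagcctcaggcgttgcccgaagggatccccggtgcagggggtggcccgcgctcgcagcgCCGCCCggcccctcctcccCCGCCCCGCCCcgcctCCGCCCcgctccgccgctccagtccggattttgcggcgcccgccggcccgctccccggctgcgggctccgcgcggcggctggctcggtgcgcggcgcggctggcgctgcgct

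Sema4b intron, chr7:80209141-80209440, plus strand, erythroid-like cluster 5: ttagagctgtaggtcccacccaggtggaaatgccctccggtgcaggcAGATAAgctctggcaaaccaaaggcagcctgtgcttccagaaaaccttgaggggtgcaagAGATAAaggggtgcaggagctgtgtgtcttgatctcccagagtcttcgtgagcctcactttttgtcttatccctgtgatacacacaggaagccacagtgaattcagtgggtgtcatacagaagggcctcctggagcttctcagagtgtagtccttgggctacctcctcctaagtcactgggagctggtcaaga

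Plxnc1 intron, chr10:94931866-94932165, minus strand, erythroid-like cluster 5: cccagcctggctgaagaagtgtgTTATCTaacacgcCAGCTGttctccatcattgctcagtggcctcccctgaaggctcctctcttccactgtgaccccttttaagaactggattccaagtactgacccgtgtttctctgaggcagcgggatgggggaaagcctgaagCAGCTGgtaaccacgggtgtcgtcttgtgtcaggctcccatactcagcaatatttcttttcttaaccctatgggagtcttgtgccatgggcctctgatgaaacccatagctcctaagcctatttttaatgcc

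Sema5b intron, chr16:35591945-35592244, plus strand, progenitor-like cluster 9: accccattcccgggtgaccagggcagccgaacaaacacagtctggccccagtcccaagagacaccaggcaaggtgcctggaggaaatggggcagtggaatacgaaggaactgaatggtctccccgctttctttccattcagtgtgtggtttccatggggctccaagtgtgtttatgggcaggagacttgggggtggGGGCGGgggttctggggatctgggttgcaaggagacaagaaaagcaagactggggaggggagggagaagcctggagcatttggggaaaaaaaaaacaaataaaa

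Robo4 upstream, chr9:37400497-37400796, plus strand, cluster 8: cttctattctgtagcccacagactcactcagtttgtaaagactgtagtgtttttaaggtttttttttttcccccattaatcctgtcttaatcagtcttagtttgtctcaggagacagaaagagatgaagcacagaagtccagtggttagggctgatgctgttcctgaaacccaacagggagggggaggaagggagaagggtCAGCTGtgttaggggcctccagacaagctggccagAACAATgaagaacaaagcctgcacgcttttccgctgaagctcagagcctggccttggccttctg

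The Ephb4 promoter held 37.7, 28.8 and 34.4 CPM in mesenchyme-like cluster 1, in stage order. In neuron-like cluster 0 it held 7.72, 2.47 and 2.64 CPM. Every library of cluster 1 was above every library of cluster 0. With libraries pooled, the Epha10 promoter held 10.9 CPM in cluster 0 and 11.3 in cluster 6, against 0.656 in cluster 1. The Unc5a promoter held 12.2 and 17.1 in the same neuron-like clusters, against 3.61 in cluster 1. In E12.5 the Epha10 and Unc5a promoters had 1 fragment each in cluster 0, from 11 nuclei, so the neuron-like level at these promoters rests on E13.5 and E15.5.

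Of the intronic windows, the one in Sema4b held 23.1, 29.3 and 47.9 CPM in erythroid-like cluster 5, from 9, 253 and 17 fragments. No other cluster exceeded 1.97 with libraries pooled. The window in Plxnc1 held 15.4, 17.4 and 16.9 in cluster 5, and the next highest cluster was mesenchyme-like cluster 1 with 3.72. In Sema5b the window held 0, 13.6 and 18 in progenitor-like cluster 9, where E12.5 had no fragment, and neuron-like cluster 6 came next with 2.15. The window upstream of Robo4 held 4.03 in cluster 8 with libraries pooled, from 20 fragments, and progenitor-like cluster 9 came next with 1.27.

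**Figure D1:**
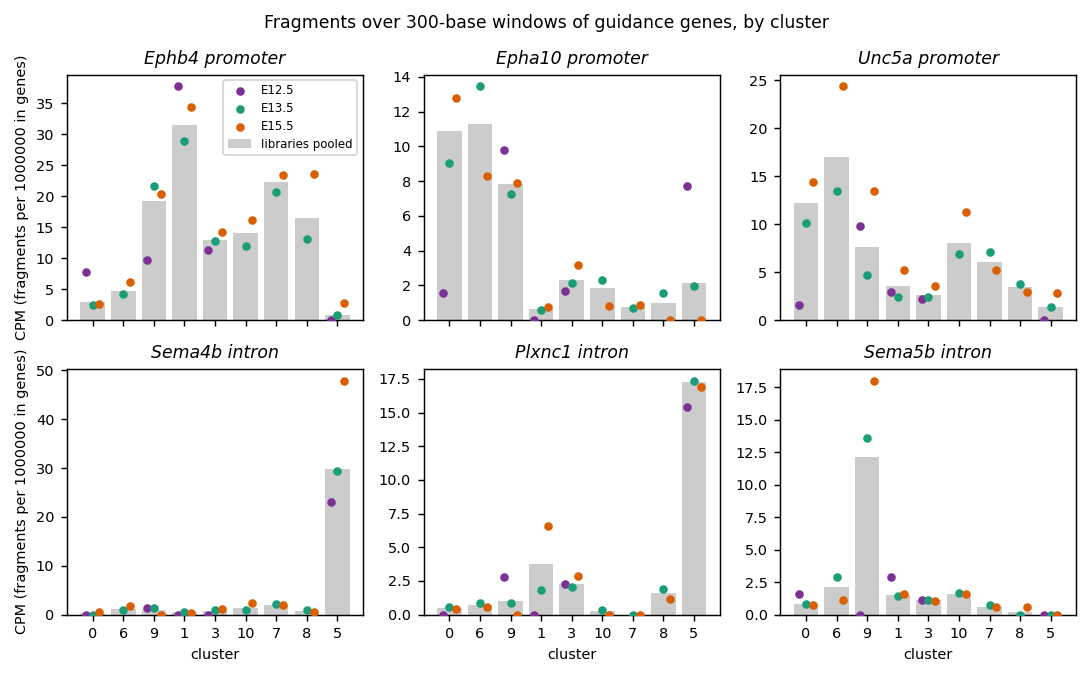
CPM, the fragments per 1000000 fragments in genes (vertical axis, linear), over 6 of the 300-base windows, by cluster number. Grey bars pool the 3 libraries and points are single libraries with at least 10 nuclei in the cluster. The Sema4b and Plxnc1 introns stood out in cluster 5, the Sema5b intron in cluster 9, and the Ephb4 promoter was low in clusters 0, 6 and 5.

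Of the 3 windows chosen in this way for cluster 5, those in Sema4b and Plxnc1 hold AGATAA, a sequence that GATA factors are known to bind. The one in Ntn3 does not hold these letters, and other forms of the GATA site were not searched in any window. Over all clusters AGATAA occurs in 3 of the 24 distinct windows chosen and in 19.4% of 23395 windows tiled over the 59 genes. CAGCTG, an E-box, occurs in 10 of the 24 and in 12% of the tiled windows. GGGCGG occurs in 7 of the 24 (4.09% of tiled windows), CCAAT in 5 (37.3%), TAATTA in 3 (11.9%), AACAAT in 2 (19.3%), CATATG in 2 (9.05%) and TATAAA in 1 (25.6%). Across promoters, 51 genes had a RefSeq entry. GGGCGG, the letters of a GC box, occurred in 38 of these 51 (74.5%) and in 48.3% of 16323 promoters of all genes. The median GC content was 65.3% for the guidance genes and 57% for all promoters. TATAAA occurred in 3.92% and 12.9%, CCAAT in 31.4% and 38.9%, CAGCTG in 15.7% and 15.2%, and AGATAA in 3.92% and 9.73%. TAATTA occurred in 5.88% and 4.56%, AACAAT in 1.96% and 9.34%, and CATATG in 0% and 3.02%. Efnb3, Ntn1, Plxna1, Plxna4, Sema3b, Sema3f, Sema6a and Slit1 had no entry.

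Family by family, density differed widely. Among secreted class 3 semaphorins the mean density over the 9 clusters was highest for Sema3f, at 3.49, and lowest for Sema3e, at 0.387. Sema4c led the membrane-bound class 4 at 5.63 and Sema6b led classes 5 to 7 at 3.65. Of the ephrins, Efna3 was at 5.46 and Efnb3 at 3.96. Slit1 was at 1.54 and Slit2 at 0.431. Ntn3 was the densest netrin at 9.36, but its window shares 48.4% of its bases with Tbc1d24, so the fragments cannot be given to Ntn3 alone. On the receptor side, Plxnb2 led the plexins at 4.17, Epha2 the EphA genes at 2.05, Ephb3 the EphB genes at 4.76, Robo3 its pair at 1.90 and Unc5b the Unc5 genes at 1.90. Of these 12 leading genes, 9 were lowest in cluster 5 with libraries pooled. By single library, cluster 5 was the lowest of the 9 clusters for 18% of all genes tested in E13.5 and 28.4% in E15.5. Parts of the windows of Efna4 (22.4%, Adam15) and Sema3g (21.3%, Nisch) are shared as well.

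With libraries pooled, the sum over all 59 genes was highest in clusters 6, 9 and 0 and lowest in clusters 5 and 11. It was 8311 CPM in cluster 6, 8082 in progenitor-like cluster 9 and 7620 in cluster 0. It was 7374 in cluster 3, 6911 in mesenchyme-like cluster 1, 6764 in muscle-like cluster 10, 6211 in cluster 7, 5171 in cluster 8 and 4761 in erythroid-like cluster 5. By library, cluster 0 ran from 7470 to 8011 and cluster 5 from 4499 to 5578, so these clusters did not overlap. The same held for the sum over all genes with windows over 100 kb, which include some of the 59. That sum ran from 357148 to 382288 CPM in cluster 0 and from 268888 to 313064 in cluster 5. Cluster 3, at 7316 to 7689, overlapped with cluster 0. In cluster 11 it was 1730.

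**Figure D2:**
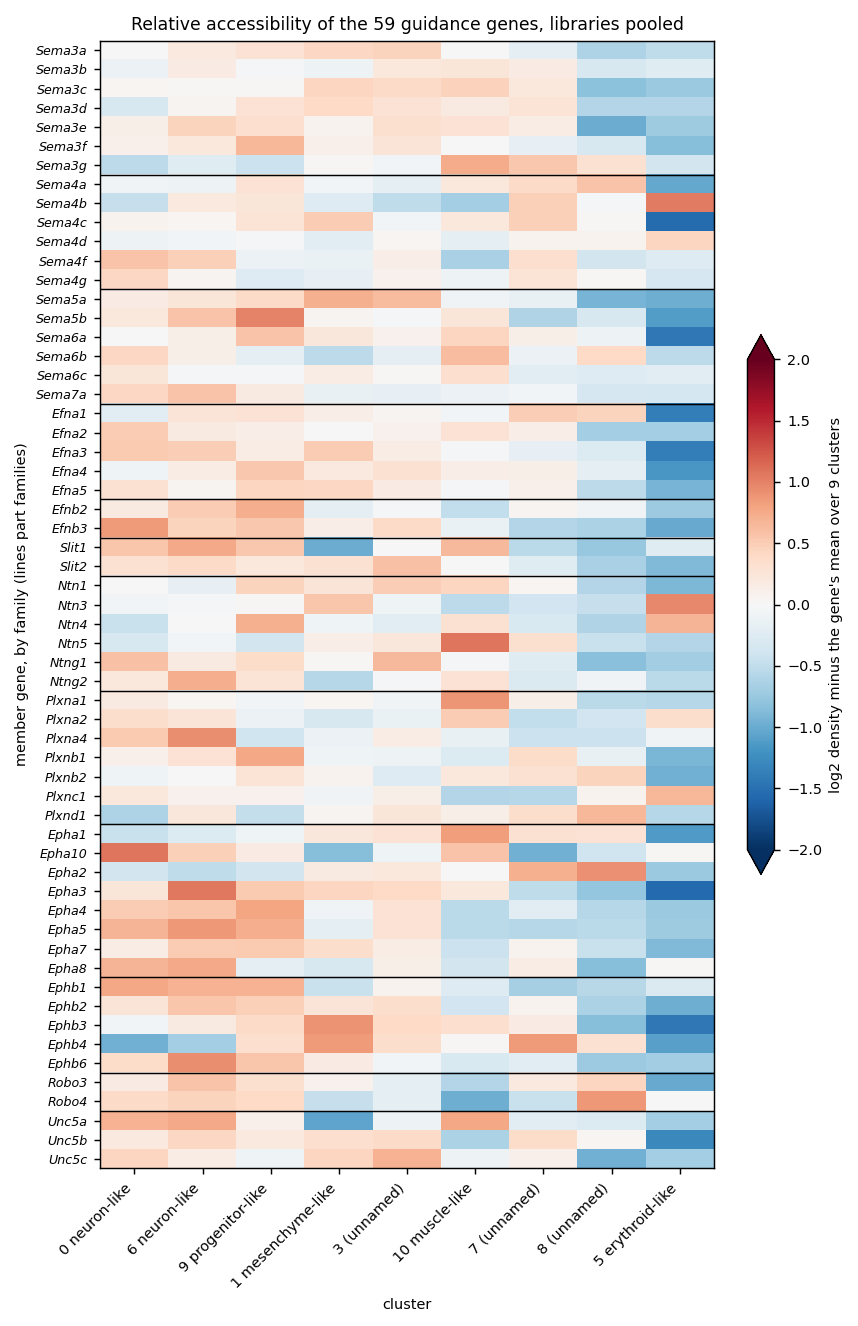
Rows are the 59 genes, grouped by family, and columns are the 9 clusters. Colour is the log2 density with libraries pooled minus the mean of that gene over the clusters. The column of cluster 5 is blue for most genes, with Sema4b, Ntn3, Ntn4 and Plxnc1 red.

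Neuron-like clusters 0 and 6 against mesenchyme-like cluster 1 asked which guidance genes differ between these clusters, here called neurons and mesenchyme. Accessibility was higher in neurons for 11 of 59 genes and lower for 4, with percent called of 4.36 and 4.49 over all genes tested (edgeR, adjusted p under 0.05). The largest differences toward neurons were at Unc5a, Epha10 and Slit1, each at least 3.03-fold, and the largest toward mesenchyme was at Ephb4. The median log2 difference was 0.22 for the 59 genes and 0.00 for all genes. It was 0.09 for the 59 genes without E12.5, 0.12 without E13.5, 0.09 with a minimum of 20 nuclei and 0.06 over the gene body alone. By role, 5 of 34 ligands were higher and 1 lower, and 6 of 25 receptors were higher and 3 lower. Of the 24 guidance genes with windows over 100 kb, 4 were higher, where 14.4% of all genes of that length were, and of the 35 shorter ones 7 were, where 3.02% were. The median was 0.22 for the long guidance genes and 0.15 for all long genes, and 0.14 and -0.02 for the shorter ones.

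Among the receptors, Unc5a, a netrin receptor for repulsion, had a density of 2.13, 2.59 and 2.98 in cluster 0 in stage order. The later 2 libraries of cluster 6 had 2.91 and 3.01, and cluster 1 had 0.544, 0.867 and 0.812. The neuron-like and mesenchyme-like libraries did not overlap, and the log2 difference was 1.85 ± 0.27 (SE, adjusted p = 1.1e-05, edgeR). Unc5a lies at chr13:54949411-55006018. Its relatives Unc5b and Unc5c were not called.

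Epha10, an Eph receptor without kinase activity, was at 2.62, 1.87 and 2.74 in cluster 0 and at 1.56 and 1.61 in cluster 6. Cluster 1 had 0.596, 0.797 and 0.460, again without overlap, and the log2 difference was 1.67 ± 0.25 (adjusted p = 2.09e-05, edgeR). The EphA receptors Epha5 and Epha8 were higher by 1.10 ± 0.23 and 1.03 ± 0.24. For Epha5 the highest mesenchyme-like library was at 0.301 and the lowest neuron-like one at 0.463. Epha2, which is common in epithelia, was lower in neurons by a log2 difference of -0.76 ± 0.24 (adjusted p = 0.0355, edgeR). Epha1, Epha3, Epha4 and Epha7 were not called.

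The EphB receptors moved both ways. Ephb1 was higher in neurons, with a log2 difference of 1.05 ± 0.21, while Ephb4 and Ephb3 were lower. Ephb4, a receptor of ephrin-B2 known from veins, was at 3.99, 3.41 and 4.52 in cluster 1. In cluster 0 it was at 1.92, 0.935 and 1.13, and in cluster 6 at 1.29 and 1.22. The log2 difference was -1.64 ± 0.25 (adjusted p = 2.99e-05, edgeR), and no neuron-like library reached the lowest mesenchyme-like one. Ephb3 was at 7.48, 7.03 and 9.45 in cluster 1 and between 3.98 and 4.30 in cluster 0, with a log2 difference of -0.80 ± 0.19. Of the plexins, the semaphorin receptors, 1 of 7 was called: Plxna4, higher by 0.85 ± 0.20.

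Among the ligands, Slit1 had a density of 2.0, 2.18 and 2.01 in cluster 0, of 2.51 and 2.02 in cluster 6, and of 0.798, 0.736 and 0.658 in cluster 1. The log2 difference was 1.6 ± 0.19 (adjusted p = 7.9e-07, edgeR), the smallest adjusted p of the 59 genes in this comparison. Slit2 was not called, at 0.23 on the log2 scale. Ntng2, a membrane-anchored netrin-G ligand, was higher by 1.10 ± 0.21, and the membrane semaphorins Sema6b and Sema7a by 0.79 ± 0.19 and 0.74 ± 0.21. Efnb2, the ephrin that Ephb4 binds, was higher by 0.63 ± 0.19, in the direction opposite to Ephb4. None of the 7 class 3 semaphorins and none of the 5 ephrin-A genes was called by edgeR or DESeq2, or had an unadjusted p under 0.05 (0 genes). Their log2 differences ran from -0.44 to 0.26 and from -0.31 to 0.25. Since edgeR called 4.36% of all genes higher and 4.49% lower, 0 calls among 7 and among 5 genes is near that share. Ntn3 was lower by a log2 difference of -0.74 ± 0.21 and shares its window with Tbc1d24.

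**Figure D3:**
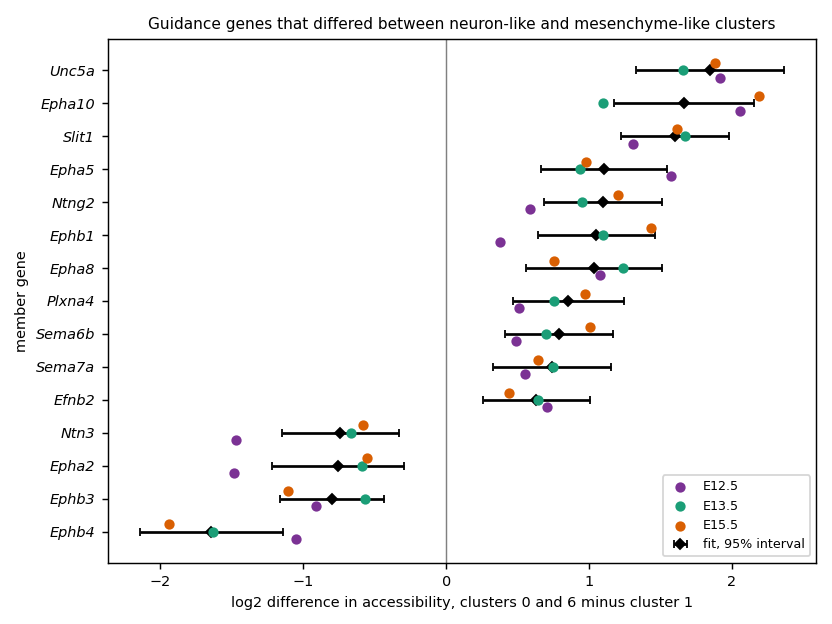
Log2 differences in accessibility between neuron-like clusters 0 and 6 and mesenchyme-like cluster 1 for the 15 genes called. Black diamonds with bars are the fit and its 95% interval, and coloured points are the difference within each library. The 3 libraries lay on the same side of 0 for each of the 15 genes, and the E12.5 points use cluster 0 alone. The genes were called from these same libraries, so this shared side is no separate test.

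In E12.5 this difference uses cluster 0 alone. The counts rest on the deeper libraries. Without E13.5 there were 4 higher and 1 lower, against 0.707% and 0.611% of all genes. Without E15.5 there were 5 and 1 (1.08% and 0.979%), and without E12.5 there were 13 and 2 (4.78% and 5%). With 1 barcode kept of each group of barcodes that shared fragments (5, 32 and 138 nuclei in stage order), there were 13 and 4. Of all genes, 5% and 5.24% were called then.

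Promoter and gene body were then counted apart, the promoter from 1000 bases upstream to 100 downstream of the start and the body from 1 kb on. In 54 genes with both, 41 had the same sign, and so did the 14 genes called over the whole window and tested in both, a window that contains both parts. Of these 14, 7 were also called at the promoter, 10 over the body and 5 in both. Ephb4 differed by -2.47 ± 0.21 at the promoter and by -1.23 ± 0.31 over the body, on the log2 scale. Unc5a differed by 2.45 ± 0.30 and 1.74 ± 0.28, and Slit1 by 2.33 ± 0.53 and 1.48 ± 0.22. Ephb1 differed by 0.11 ± 0.27 at the promoter (adjusted p = 0.88, edgeR) and by 1.01 ± 0.21 over the body. Ephb3 likewise had -0.33 ± 0.15 at the promoter and -1.21 ± 0.26 over the body.

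Neuron-like clusters 0 and 6 were then set against progenitor-like cluster 9. Whether these neurons descend from cells like those of cluster 9 was not tested. Here 1 of 59 genes was higher in neurons and 2 were lower, with percent called of 0.505 and 1.36. Plxna4, a receptor for class 3 semaphorins with neuropilins, was at 0.977, 1.03 and 1.04 in cluster 0 and at 1.54 and 1.09 in cluster 6. Cluster 9 had 0.652, 0.450 and 0.703, without overlap, and the log2 difference was 0.97 ± 0.20 (adjusted p = 0.00487, edgeR). Ntn4, a laminin-related netrin, was lower by -0.73 ± 0.20 on the log2 scale (adjusted p = 0.0497, edgeR), and its libraries overlapped. Ephb4 was lower by -1.15 ± 0.26 (adjusted p = 0.0139, edgeR), but in E12.5 cluster 9 was at 1.65 and cluster 0 at 1.92, so that library had the opposite order. For Unc5a and Slit1, which set neurons apart from mesenchyme, the densities in cluster 9 were 2.27, 1.98 and 1.17 and 2.05, 2.0 and 2.17. The log2 difference between neurons and progenitors was 0.68 for Unc5a, with a 95% interval from 0.18 to 1.17 and an adjusted p of 0.19 (edgeR). Markers of progenitors were also raised in cluster 6, 5 of 8, with a sum of 431 CPM against 761 in cluster 9 and 267 in cluster 0. In cluster 9, 2 of 9 neuron, 3 of 7 GABAergic, 2 of 6 glutamatergic and 3 of 6 sensory neuron markers were raised. The neuron markers summed to 481 CPM there, against 759 in cluster 0 and 664 in cluster 6. The part of these markers in the differences was not tested. Plxna4 was not called without E13.5 or at the promoter alone, where its difference was 0.28 (adjusted p = 0.817, edgeR). Ephb4 was not called without E13.5, without E15.5, with a minimum of 5 nuclei or over the body without the promoter. Ntn4 lost its call in 8 of 14 alternatives, with an adjusted p of up to 0.921 (edgeR).

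The neuron-like clusters were also compared with each other, a comparison chosen after the data were seen. With edgeR, 0 of 59 genes were called in either direction, and 0 were higher and 3 lower in cluster 0 at an unadjusted p under 0.05. DESeq2 called 0. Over all genes, 0% were called higher and 0.0364% lower. No share of all genes is given at the unadjusted threshold, so the 3 are not read as a result about the 59. The 3 genes were Sema4b, Epha3 and Ntng2, with adjusted p of 0.535, 0.590 and 0.719 (edgeR). Their log2 differences, cluster 0 minus cluster 6, were -0.76, with a 95% interval from -1.24 to -0.28, then -0.72, from -1.20 to -0.25, and -0.65, from -1.12 to -0.19.

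Each cluster was then set against the mean of the other 8. These comparisons share their samples, so each is given by its own values. Over all clusters, 66 pairs of gene and cluster were called higher, where 1.21% to 14.2% of all genes were, by cluster. Without E13.5 or E15.5 the number fell well below this, and the share of all genes fell in every cluster. Clusters 6, 7, 8 and 10 are then left with a single sum, so other clusters give the spread. A minimum of 5 nuclei per sum admits cluster 11 and the E12.5 sums of clusters 6 and 7. The genes called higher then numbered 24 in cluster 0, 22 in cluster 6, 22 in cluster 9, 18 in cluster 3 and 8 in cluster 7. The shares of all genes called higher rose as well, to 10.7%, 8.38%, 7.61%, 16.7% and 4.77%. In cluster 11 itself, tested at that minimum, 1 gene was higher and 50 lower, against 20.2% and 31.4% of all genes. At promoters alone, 54 of the 59 genes were tested.

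In neuron-like cluster 0, 14 of 59 genes were higher and 2 lower, against 5.51% and 2.72% of all genes. Epha10 led with 1.16 ± 0.17 on the log2 scale, followed by the ligand Efnb3 with 1.05 ± 0.22 and by Unc5a with 0.80 ± 0.19. Efnb3, a membrane-bound ephrin, was at 10.1, 6.53 and 6.30 in cluster 0, and the highest value elsewhere in a tested library was 7.78, in cluster 9 of E15.5. The ligands Slit1, Slit2, Ntng1, Sema4f and Sema6b and the receptors Epha4, Epha5, Epha8, Ephb1, Plxna4 and Unc5c were the other genes called higher. The number called higher was 2 without E13.5 (1.43% of all genes) and 3 without E15.5 (1.64%). No gene was then called lower, against 0.266% and 0.369% of all genes. Over the gene body without the promoter 8 were higher, against 3.11% of all genes. At promoters alone 14 of the 54 genes tested were higher and 3 lower, against 8.4% and 6.12% of all promoters. Of the 14 genes called higher over the whole window, 7 were also called at promoters alone.

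In neuron-like cluster 6, 13 genes were higher, against 3.33% of all genes. None was lower with edgeR (0.63% of all genes), where 2 had an unadjusted p under 0.05, or with DESeq2 (1.55%). In other settings of edgeR, 2 were lower with a minimum of 20 nuclei (1.45%), 1 at promoters alone (1.68%) and 1 without E12.5 (1.39%). Epha3, a receptor of ephrin-A ligands, was at 0.951 and 0.699 in E13.5 and E15.5 and at most 0.670 in any other tested library, and its log2 difference was 1.14 ± 0.18 (adjusted p = 7e-05, edgeR). Unc5a was higher by 1.05 ± 0.22 and Plxna4 by 1.03 ± 0.17. Ntng2 and Ephb6, an Eph receptor without kinase activity, were higher by 0.95 ± 0.18 and 0.94 ± 0.26. Without E13.5 or E15.5 cluster 6 is left with a single sum, so calls are not given. The median over the 59 genes was then 0.18 and 0.41, against 0.24 in the main fit.

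In progenitor-like cluster 9, 12 genes were higher, against 4.18% of all genes. None was lower with edgeR (1.01% of all genes), where 2 had an unadjusted p under 0.05, or with DESeq2 (2.12%), while 1 was lower with a minimum of 20 nuclei (1.63%) and 1 without E12.5 (1.41%). The membrane semaphorin Sema5b was at 2.35, 2.73 and 4.04 there, and at 0.548 to 2.52 in all other tested sums, so E12.5 lay within that range. Its log2 difference was 1.16 ± 0.21 (adjusted p = 0.000278, edgeR). Plxnb1, a plexin that binds class 4 semaphorins, was at 7.38, 4.27 and 4.16 and higher by 0.92 ± 0.15, and Epha5 by 0.90 ± 0.18. Epha4, Ephb1, Ephb2, Efnb2, Slit1, Ntn1, Ntn4, Sema3f and Sema6a were also higher. The number called higher was 4 without E13.5 (1.01% of all genes) and 4 without E15.5 (1.63%).

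**Figure D4:**
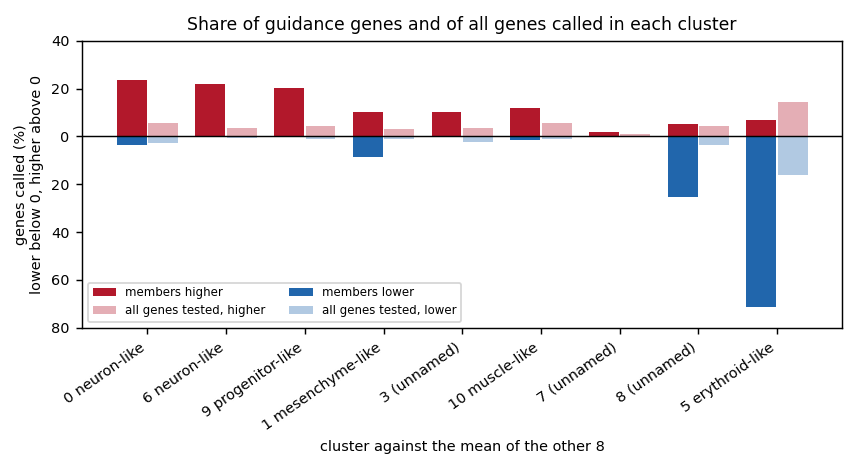
Percent of the 59 genes (solid bars) and of all 19211 genes tested (pale bars) called higher, above 0, or lower, below 0, in each cluster against the mean of the other 8. In cluster 5, 42 of 59 genes were lower, against 16.3% of all genes.

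In mesenchyme-like cluster 1, 6 genes were higher and 5 lower, against 2.91% and 1.06% of all genes. Ephb4 was higher by 0.95 ± 0.20 on the log2 scale, Ephb3 by 0.94 ± 0.15 and Ntn3 by 0.71 ± 0.17. The semaphorin Sema5a, the receptor Unc5c and the ligand Efna5 were the other 3. Slit1, Unc5a, Epha10, Ntng2 and Sema6b were lower. Clusters 0 and 6 are among the other 8 here, so this is not independent of the neuron comparison above. Without E13.5 there was 1 call higher and none lower, against 0.361% and 0.0106% of all genes. Without E15.5 there were none higher and 2 lower (0.722% and 0.111%), and without E12.5 there were 3 and 5 (2.94% and 1.07%). With a minimum of 5 nuclei there were 15 and 3, against 6.45% and 0.748% of all genes, and at promoters alone 8 and 1, against 4.54% and 1.1%. With a minimum of 20 nuclei there were 4 and 6, against 2.54% and 1.47%, and the median over the 59 genes was -0.04 in place of 0.09.

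In muscle-like cluster 10, 7 genes were higher and 1 lower, against 5.69% and 1.07%. Plxna1, a plexin, was at 4.84 and 4.11 in E13.5 and E15.5, above every other tested sum, which ran up to 3.33. Its log2 difference was 0.99 ± 0.18 (adjusted p = 0.000303, edgeR). Ntn5 and Epha1 were higher by 1.24 ± 0.24 and 1.07 ± 0.25, but the window of Ntn5 lies wholly within Sec1 and 10.3% of that of Epha1 within Zyx. Sema6a, Sema6b, Slit1 and Unc5a were also higher, and Unc5b was lower by -0.71 ± 0.22. With libraries pooled, Unc5a was at 2.95 in cluster 10, against 2.80 and 2.93 in neuron-like clusters 0 and 6. Slit1 was at 2.21, against 2.06 and 2.39, so neither gene was particular to the neuron-like clusters. Without E12.5 there were 10 higher and 5 lower, against 6.95% and 2.02% of all genes. Without E13.5 or E15.5 the cluster is left with a single sum, so calls are not given. The median over the 59 genes was then 0.003 and 0.087, against 0.023 in the main fit. The balance also moved with the setting: there were 7 and 5 with DESeq2, 6 and 5 with scaling by total fragments, 11 and 4 with 1 barcode per linked group, 3 and 4 at promoters alone, 3 and 2 over the body, 10 and 6 with a minimum of 20 nuclei and 13 and 1 with a minimum of 5. Over these settings, 3.84% to 8.38% of all genes were higher and 0.585% to 2.61% lower. Markers of sensory neurons were raised in this cluster, as given above, and their part in these values was not tested.

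In cluster 8, 3 genes were higher and 15 lower, against 4.52% and 3.73%, and the median over the 59 genes was -0.45. Robo4, a Robo receptor of endothelium, was at 1.42 and 2.72 and higher by 1.07 ± 0.32. In E13.5 it lay below clusters 0 and 6, at 1.59 and 1.64. Plxnd1, the endothelial receptor of Sema3e, was at 3.61 and 6.04 and higher by 0.88 ± 0.23, and in E13.5 clusters 6 and 10 lay above it, at 3.87 and 3.68. Epha2 was higher by 1.07 ± 0.21, and in E13.5 and E15.5 its density was highest in cluster 8. Of the endothelium markers, 7 of 8 were raised in this cluster, as were 6 of 7 liver and 7 of 7 white blood cell markers, and the part of each in the result was not tested. Sema5a and Unc5c were the lowest, by -1.12 ± 0.21 and -1.10 ± 0.22. Among the 15 lower genes, 13 had windows over 100 kb, where 12.7% of all genes were lower, and 2 had shorter ones, where 2.52% were. Without E12.5 there were 19 lower and 5 higher, against 5.27% and 6.39% of all genes. Without E13.5 or E15.5 the cluster is left with a single sum, so calls are not given. The median over the 59 genes was then -0.26 and -0.53. The number lower was 2 with a minimum of 5 nuclei (0.738% of all genes), 25 with a minimum of 20 (8.23%) and 5 of 54 at promoters alone (2.17%). The number higher in the same settings was 5 (5.55%), 3 (7.74%) and 3 (4.24%).

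In cluster 7, 1 gene was higher and none lower, against 1.21% and 0.312%. The gene was Ephb4, by 0.95 ± 0.23. At an unadjusted p under 0.05, 7 were higher and 10 lower with edgeR, against 8.09% and 5.56% of all genes. DESeq2 called 2 higher and 2 lower, against 1.71% and 1.17%. With a minimum of 20 nuclei there were 2 and 4 (2.31% and 1.74%), and at promoters alone 3 and 1 (2.54% and 0.321%). Without E12.5 there were 3 each way, against 2.39% and 1.01% of all genes. Without E13.5 or E15.5 the cluster is left with a single sum, so calls are not given. The median over the 59 genes was then -0.004 and -0.015, against 0.038 in the main fit.

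In cluster 3, 6 genes were higher, against 3.56%. None was lower with edgeR, against 2.4%, and 1 had an unadjusted p under 0.05 (11.1% of all genes). DESeq2 called 1 lower, against its own 4.86%, and edgeR 1 each with 1 barcode per linked group (3.42%), with nuclei of at least 3000 fragments (3.25%) and without E12.5 (2.44%). With a minimum of 20 nuclei 3 were higher, against 2.28%. Ntng1, Unc5c and Sema5a led with 0.75 ± 0.17, 0.69 ± 0.15 and 0.65 ± 0.15. In this cluster 5.99% to 7.43% of fragments lay in promoter windows, against 7.77% to 19.7% over the other 8, and 5 of the 6 genes had windows over 100 kb, where 13.8% of all genes were higher. Over the gene body without the promoter, none of the 59 genes was called (0.017% of all genes higher), and over the promoter alone, 8 were higher (5.55%). Without E13.5 or E15.5, none were called. Of all genes, 0% and 0.177% were then called higher and 0% and 0.00505% lower.

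In erythroid-like cluster 5, 42 of 59 genes were lower and 4 higher, against 16.3% and 14.2% of all genes. The median log2 difference was -0.79 for the guidance genes and -0.03 for all genes. The lower genes came from every family: 6 of 8 EphA, 5 of 5 EphB, 3 of 3 Unc5, 1 of 2 Robo, 3 of 7 plexin, 5 of 5 ephrin-A, 2 of 2 ephrin-B, 1 of 2 Slit, 3 of 6 netrin, 5 of 7 class 3, 2 of 6 class 4 and 6 of 6 class 5 to 7 semaphorin genes. Efna1 was the lowest, with -1.95 ± 0.33, at 0.225, 1.38 and 0 in cluster 5 and between 2.04 and 4.95 in the other tested sums. Epha3 was lower by -1.82 ± 0.23 and Sema6a by -1.56 ± 0.21.

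Against that direction, Sema4b, a class 4 membrane semaphorin, was at 4.13, 7.00 and 8.05 in cluster 5. In the other tested sums it ran from 1.63 to 5.38, so E12.5 overlapped with them, and its log2 difference was 1.08 ± 0.16 (adjusted p = 2.6e-06, edgeR). It was higher at the promoter, by 1.03 ± 0.25, and over the body, by 1.30 ± 0.18. Plxnc1, the plexin that binds Sema7a, was at 0.988, 1.76 and 3.18, higher by 0.83 ± 0.17, with E12.5 again within the range of other clusters. At its promoter the difference was 0.07 ± 0.32 and over the body 1.02 ± 0.18. Of the fragments behind these, the intronic windows printed above held 253 for Sema4b and 150 for Plxnc1 in E13.5. Ntn4 was higher by 0.67 ± 0.18, with -0.26 ± 0.77 at the promoter and 0.83 ± 0.20 over the body. Ntn3, which overlaps Tbc1d24, was higher by 1.04 ± 0.18, with 0.08 ± 0.26 at the promoter (adjusted p = 0.826, edgeR) and 0.94 ± 0.23 over the body. At promoters alone, 1 of the 54 genes tested was called higher in cluster 5, against 20.2% of all promoters.

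Long genes had fewer fragments in cluster 5 in general, with 39.4% of genes over 100 kb lower and 13.2% of shorter ones. Among the guidance genes, 18 of 24 long and 24 of 35 short ones were lower, with medians of -0.80 and -0.77, against -0.37 and 0.01 for all genes of those lengths. Cluster 5 had the lowest density of the 9 clusters for 31 of the 59 genes in the E13.5 library (18% of all genes) and for 31 in the E15.5 library (28.4%). Without E13.5, 15 genes were lower (6.34% of all genes), without E15.5 30 (10.1%) and without E12.5 38 (16.5%). At promoters alone 37 of 54 were lower, against 21.4% of all promoters, with a median of -1.61. With a minimum of 5 nuclei per sum, 20 were lower, against 5.48% of all genes, and over the gene body without the promoter 26 were, against 8.66%. A rise in the minimum to 20 nuclei per sum removes cluster 5 from the test, since it held 10, 166 and 10 nuclei.

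Other genes of the pathway were read from 2 lists, of co-receptors and partner proteins and of cytoplasmic effectors, with 17 and 39 genes tested. Dcc, Dscam, Lrrc4c, Kalrn and Dock1 were not counted. Against mesenchyme, where 4.36% of all genes were higher and 4.49% lower, 4 of the 17 partners were higher in neurons and none lower (edgeR, with 1 lower at an unadjusted p under 0.05 and 0 by DESeq2). Cntn2 and Chl1, adhesion molecules of axons, led with 1.41 ± 0.23 and 1.37 ± 0.20. Of the effectors 4 of 39 were higher and none lower (edgeR, with 2 lower at an unadjusted p under 0.05 and 0 by DESeq2), led by Crmp1 with 1.72 ± 0.25 and Dpysl5 with 1.17 ± 0.20, both of the collapsin response mediator family that acts in the semaphorin response. Nrp1 and Nrp2, the neuropilins with which class 3 semaphorins bind plexins, had log2 differences of 0.30 ± 0.19 and -0.25 ± 0.20 and were not called. Against progenitors, Cntn2 was higher by 0.84 ± 0.23 and Rgma, a ligand of neogenin, lower by -1.14 ± 0.23, and the effectors Crmp1 and Mical3 were higher by 1.15 ± 0.24 and 0.64 ± 0.18. In cluster 5, 12 of 17 partners and 15 of 39 effectors were lower, against 16.3% of all genes. None of the partners was higher by edgeR, at an unadjusted p under 0.05 or by DESeq2. Of the 39 effectors 4 were higher, a share below the 14.2% of all genes. In cluster 8, where 4.52% of all genes were higher and 3.73% lower, 2 partners were higher and 5 lower, and 2 effectors were higher and 3 lower.

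Stages could be compared without a test, since each has 1 library. All 59 genes had at least 50 fragments over the E13.5 and E15.5 sums together, in cluster 0 and in cluster 1. Going from E13.5 to E15.5 in neuron-like cluster 0, 1 gene was at least 1.5-fold higher and 1 at least 1.5-fold lower, against 4.44% and 5.05% of all genes. In mesenchyme-like cluster 1 there were 1 and 2, against 3.33% and 6.86%. These shares are near or below those of all genes, and the median ratios were 0.966 and 0.908, against 1.01 and 0.996.

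In cluster 0, Plxna1 had a density of 1.94 in E13.5 and 3.33 in E15.5, a ratio of 1.71 (exact 95% interval from 1.51 to 1.94, counting error only). Efna1 went from 3.88 to 2.35, a ratio of 0.607 (from 0.488 to 0.754). In cluster 1, Epha8 went from 0.926 to 1.41 (ratio 1.53, from 1.21 to 1.93), Epha10 from 0.797 to 0.460 (ratio 0.576, from 0.427 to 0.771) and Sema4f from 1.14 to 0.730 (ratio 0.641, from 0.487 to 0.839). Markers moved from E13.5 to E15.5 as well. In cluster 0 the GABAergic neuron markers summed to 508 CPM at first and 394 later, and the glutamatergic neuron markers to 155 and 197. In cluster 1 the neuron markers summed to 283 and 218 and the mesenchyme markers to 825 and 977. Their part in the ratios was not tested. With 1 barcode per linked group, Epha8 in cluster 1 was below the 1.5-fold limit. In 5 of the 59 genes (8.47%) the direction was opposite in clusters 0 and 1 with counting intervals that excluded 1 in both, against 5.39% of all genes.

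**Figure D5:**
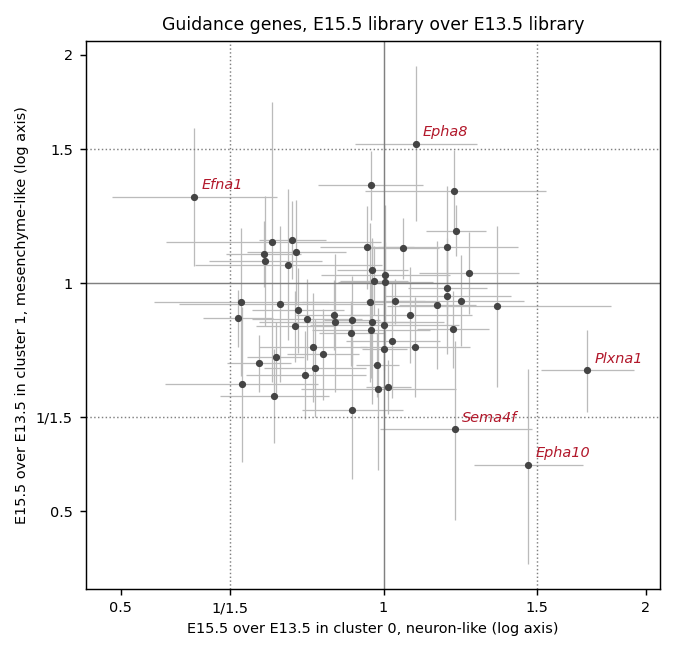
Ratio of density in the E15.5 library over the E13.5 library for the 59 genes, in neuron-like cluster 0 (horizontal, log axis) and mesenchyme-like cluster 1 (vertical, log axis). Bars are exact 95% intervals for counting error and dotted lines mark 1.5-fold either way. Most genes lie within the dotted lines, and the 5 named genes lie outside in 1 of the clusters.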

How the data were processed

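Single-nucleus ATAC-seq libraries of whole-embryo sections, 1 per stage, were analysed from the deposited fragment files. Per the file headers, the authors made them with Cell Ranger ATAC 2.0.0 on mm10, which shifts fragment ends for Tn5 and keeps each duplicate group once. The labels also name Seurat 4.1.0 and Signac 1.6.0. The deposited count beside each fragment is its number of read pairs and was not used as depth, and every fragment counted once. A deposited table of 1879 nuclei gave library and cluster. The study's methods describe clusters made by integrating these nuclei with spatial ATAC profiles, and do not tie them to the deposited numbers. It has 20 columns that were not used.

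Of 21938 protein-coding GENCODE vM21 genes, 79 of the Pcdh and Ugt clusters, 231 over 500 kb and 26 repeated symbols were left out. Overlapping genes share fragments. Sums were fitted with edgeR 4.0.16 in R 4.3.3 (quasi-likelihood, robust, TMM, cluster and library as terms, filterByExpr), with Benjamini-Hochberg adjustment over 19211 genes. ± is the standard error. Nuclei were never replicates. The script was tested on simulated data. DESeq2 1.42.0, other scalings, filters, windows and libraries left out were alternatives. Stages were compared by ratios with exact intervals of counting error. Doublets were not removed. Across libraries, 1 barcode sequence was shared. Libraries held between 9402554 and 87687839 fragments in the files, of which 74.4% to 91.5% were in nuclei.

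The genes and lists were chosen with earlier results of these data known. Genes named were, for the neuron comparisons, those called with the largest differences of the same sign in every library. For single clusters they were up to 3 called higher with the largest differences, and for stages those past 1.5-fold. The other names, such as the rest of those called and the lowest genes of a cluster, were chosen after their values were seen.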

Additional observations from a re-analysis of the deposited data

Results flagged for a closer look

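Between E13.5 and E15.5, 5 of the 59 genes moved in opposite directions in neuron-like cluster 0 and mesenchyme-like cluster 1, each with a 95% counting interval that excluded 1 in both clusters. Of all 16648 genes with enough fragments in both clusters, 898 (5.39%) met the same condition, against 8.47% of the 59. The difference between the clusters was not tested, since each stage has 1 library. Plxna1 had an E15.5 over E13.5 ratio of 1.71 in cluster 0 and 0.767 in cluster 1. For Epha10 the ratios were 1.46 and 0.576, and for Ntng1 they were 1.20 and 0.870. In the opposite direction, Efna1 had 0.607 in cluster 0 and 1.30 in cluster 1, and Epha4 had 0.786 and 1.14.

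Clusters 2 and 4, which entered no comparison, also held fragments over the 59 genes. In cluster 2 there were 9925, or 7193 CPM, and in cluster 4 there were 778, or 7486 CPM, with 1 gene at 0.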

How the results depend on the processing

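For neurons against mesenchyme, leaving out 1 library in turn gave 4 to 13 genes higher and 1 to 2 lower. The shares of all genes were then 0.707% to 4.78% and 0.611% to 5%. The other alternatives stayed within 1.5 times of the 11 and 4 called. For neurons against progenitors, leaving out 1 library gave 0 to 2 higher and 0 to 2 lower, against 0% to 0.673% and 0.0213% to 1.67% of all genes. The number higher was 3 with at least 20 nuclei per sum and 0 at the promoter alone. The number lower was 0 with at least 5 nuclei, 1 with RLE scaling, 1 with scaling by total fragments, 0 over the body without the promoter and 1 without the library term. Against the 66 pairs called higher in a cluster, there were 72 without E12.5, of which 58 were among the 66. There were far fewer without E13.5 or E15.5, where clusters 6, 7, 8 and 10 are left with a single sum. A minimum of 5 nuclei, which admits cluster 11 and the E12.5 sums of clusters 6 and 7, gave 134 pairs, 1 of them in cluster 11 itself. At promoters alone, past 1.5-fold between stages were 3 genes higher and 3 lower of 43 in cluster 0 (5.84% and 6.2% of all promoters), and 0 higher and 7 lower of 37 in cluster 1 (3.72% and 6.87%), and 1 barcode per linked group left 0 higher in cluster 1. Of 601 alternative values of the 47 results named by rule, 500 kept direction and call, 101 kept direction but lost the call and none reversed. The losses were uneven. Without E13.5 more named results lost the call than kept it, and likewise without E15.5. At promoters alone 17 lost it, and over the body without the promoter 13 did. With DESeq2 or without the filter on low counts none did, so the total of 500 leans on settings close to the main fit. Genes named after their values were seen are not among the 47. One of these, Ntn4 in cluster 5, had the opposite sign at its promoter. Beyond these, the balance of genes called higher and lower changed side under at least 1 alternative in clusters 1, 7, 8 and 10 and against progenitors, and the median of the 59 genes changed sign in clusters 1, 3, 7 and 10. The cause was not tested. Clusters were compared within libraries through the library term, and without it there were 12 higher and 4 lower against mesenchyme. Between stages no paired analysis was possible because each stage has 1 library and the labels carry no replicate numbers. Scalings moved the median of all genes by less than 0.1 on the log2 scale. The comparison of clusters 0 and 6 called 0 of the 59 genes under each alternative that left cluster 6 more than a single sum. Over all genes, up to 0.0156% were then called higher and up to 0.214% lower. Depth limits E12.5 most, with 10 to 25 nuclei per cluster tested, and genes with few fragments in the 10 nuclei of cluster 5 in E12.5 and E15.5.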
